A study of Mus musculus with 12 samples.

Results

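The expression of 10 genes that mark dendritic cells was followed in 12 mouse tumors. The genes were Xcr1, Clec9a, Batf3, Flt3, Zbtb46, Ccr7, Ccl22, Fscn1, Siglech and Cd209a. They were chosen by symbol as known markers, with earlier results of these data known, and matched 10 of the 18211 genes in the table. MC38, a line from a mouse colorectal adenocarcinoma, had been implanted under the skin of female C57BL/6 mice, bought at 5 weeks of age, and treatment groups were drawn on day 7, so tumor and host transcripts come from one species and none of the tumors arose in the bowel. CK mice received vehicle, and PB-020 mice a daily oral dose (50 mg/kg) of this inhibitor of the growth factor receptor IGF-1R. Anti-PD-1 mice received an antibody that blocks an inhibitory receptor of T cells, at 200 μg a dose, on each of days 9, 12, 15 and 18, and PB-020/anti-PD-1 mice received both agents. Each group held 3 tumors, and whole tumor tissue was sequenced.

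Dendritic cells take up antigen and present it to T cells. The type 1 conventional subset (cDC1) presents tumor antigen to CD8 T cells and needs the transcription factor BATF3. It carries the chemokine receptor XCR1 and CLEC9A, a receptor for dead cells. Conventional dendritic cells share the factor ZBTB46 and grow from precursors that depend on the receptor FLT3. Mature dendritic cells gain CCR7, which leads them to lymph nodes, make the chemokine CCL22 and hold the actin-bundling protein fascin (Fscn1). Siglech marks plasmacytoid dendritic cells (pDC), which make type I interferon, and Cd209a marks part of the type 2 conventional subset (cDC2) and monocyte-derived cells. Several of these genes are also expressed elsewhere, Zbtb46 in endothelium, Ccr7 in naive T cells, Batf3 in activated T cells and Fscn1 in many tumor cells.

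Depth was even, with 16545394 to 17217035 expected counts per library (median 16927043). A pair of libraries stood apart. Muscle genes, summed over 7 markers, reached 547.8 FPKM in anti-PD-1 tumor 1 against 11.3 to 59.9 in the other tumors, and neutrophil genes, summed over 5 markers, reached 388.7 FPKM in CK tumor 3 against 5.52 to 30.99. FPKM is the number of fragments per kilobase of transcript, scaled to the library total. Calls of named genes over both anti-PD-1 groups that ended when either tumor was left out are named beside the result. Of 6 markers of colorectal epithelium none passed the filter on low counts, and their summed level was 0.16 to 0.75 FPKM.

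Of the 10 genes, Fscn1 was by far the most abundant per length and Xcr1 the least. Averaged over the 12 tumors, Fscn1 stood at 83.4 FPKM, above 94.8% of the genes in the table. Ccl22 averaged 5.02, Zbtb46 2.74 and Ccr7 2.50 FPKM. The other 6 genes averaged under 1 FPKM, with Batf3 at 0.911, Cd209a at 0.661, Clec9a at 0.519, Siglech at 0.469, Flt3 at 0.351 and Xcr1 at 0.33. These 6 rested on few reads, from 3 counts (Batf3 in PB-020 tumor 2) to 47 counts (Clec9a in anti-PD-1 tumor 1) in a tumor. All 10 passed the filter on low counts, as did 13563 of the 18211 genes.

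**Figure D1:**
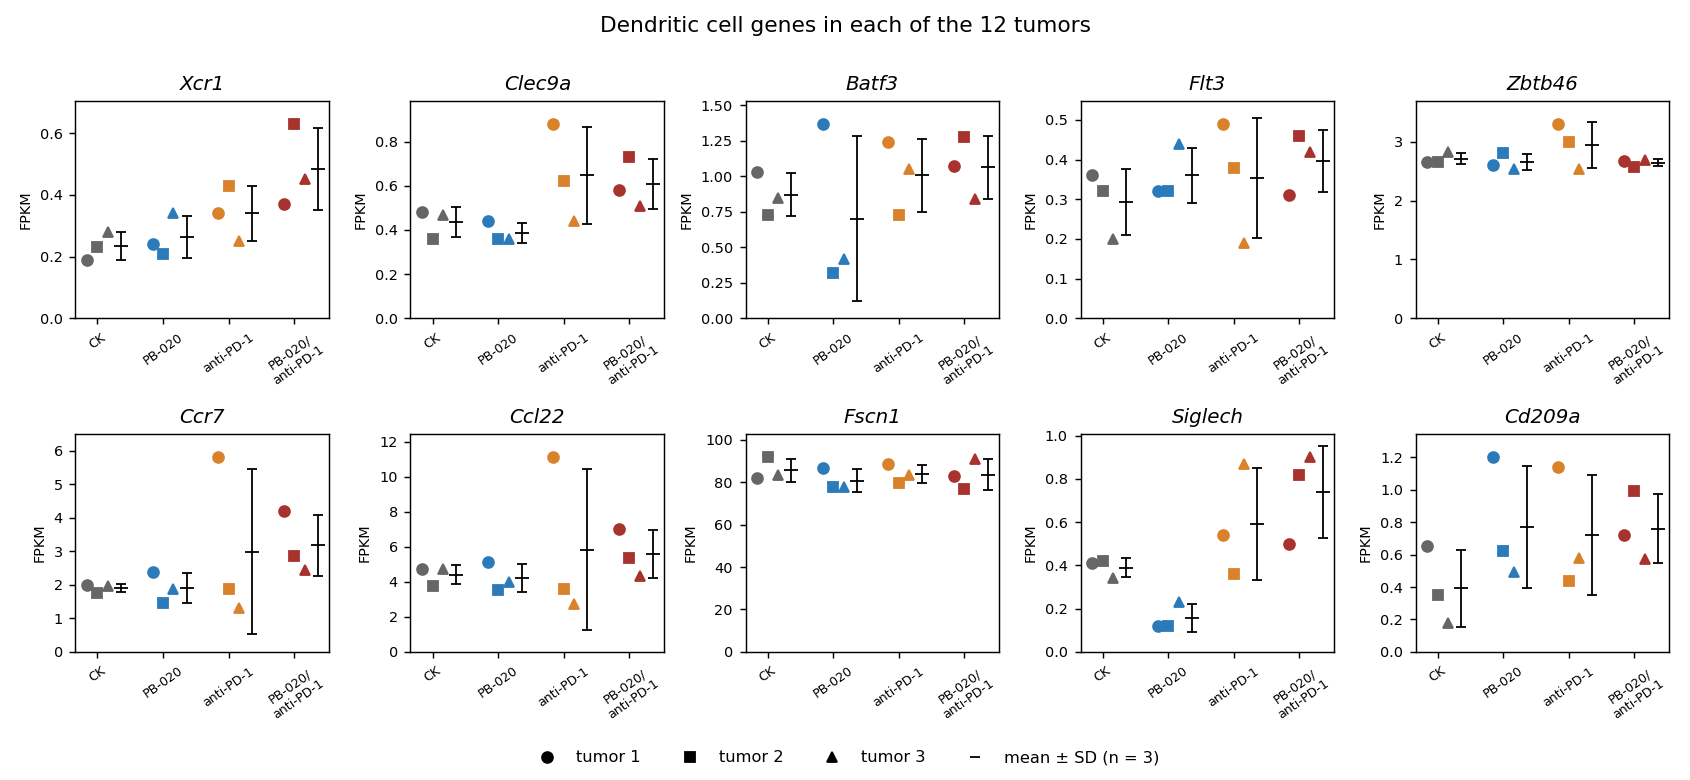
FPKM (vertical axes, from 0) of each of the 10 genes in each tumor, by group (horizontal axes), with the mean and SD of the 3 tumors of a group in black. Xcr1 lay at 0.37 to 0.63 in PB-020/anti-PD-1 against 0.19 to 0.28 in CK, Fscn1 lay between 76.57 and 91.71 in the 12 tumors, and anti-PD-1 tumor 1 held the highest Ccr7 and Ccl22.

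Xcr1, Clec9a and Siglech were higher with anti-PD-1 than without it, and with PB-020 alone none of the 10 genes passed the test. When the 6 tumors given anti-PD-1, with or without PB-020, were set against the 6 others, these 3 of 10 genes passed an adjusted p of 0.05 (edgeR's quasi-likelihood test, Benjamini-Hochberg over all genes tested) and none was lower. Of all genes tested 11.8% were called higher in this comparison. All 10 log2 changes were above 0, as were 50% of those of all genes, and their median was 0.42 against 4.49e-05 over all genes. The 10 genes include 3 that mark the same subset, so their directions are not independent of each other. They were also chosen with earlier results of these data known, so the shares of all genes are given as a description. In bulk tissue, more cells of a type and more RNA per cell cannot be told apart.

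The sequence before the start of Xcr1 and Siglech is shown because both rose, with that of Cd209a as the member that holds a match to an IRF motif. Bases are given 5′ to 3′ on the strand of the gene, from RefSeq on GRCm38.p6. The windows are the 100 bases before the annotated start of Xcr1 (chr9:123862030-123862129, minus strand), 70 bases before that of Siglech (chr7:55768084-55768153, plus strand) and 101 bases that end on the first base of Cd209a (chr8:3748984-3749084, minus strand). Capitals mark the motif match.
Xcr1: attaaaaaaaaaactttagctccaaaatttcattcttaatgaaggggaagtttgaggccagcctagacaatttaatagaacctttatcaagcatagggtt
Siglech: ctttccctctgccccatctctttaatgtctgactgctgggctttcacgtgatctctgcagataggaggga
Cd209a: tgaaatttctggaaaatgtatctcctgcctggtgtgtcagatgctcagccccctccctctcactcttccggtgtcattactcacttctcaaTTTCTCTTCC

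Promoter windows of 300 bases were searched on both strands for 4 motifs, in 9 of the 10 genes and in 32851 promoters in all. The composite site of ETS and IRF factors, GGAA and GAAA with any 2 bases between them, was found in Cd209a alone of the 9, on the strand opposite to the gene and starting 9 bases before the start, and in 2.72% of all promoters. TGANTCA, the AP-1 site also read by BATF factors, was found in Zbtb46 alone, 61 bases before the start, and in 7.81% of all promoters. All 100 bases before the start used for Zbtb46 lie within the body of the gene, so this window may not be a promoter. The interferon response core, GAAA and GAAA with any 2 bases between them (3.44% of all promoters), and the NF-kappa-B motif, GGGA and TTCC with any 2 bases between them (1.47%), were found in 0 of the 9. The AP-1 motif is its own reverse complement, so both strands count once. No window was given for Ccr7.

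Xcr1, the receptor for the chemokine XCL1, had its highest mean in the combination. Its level was 0.19, 0.23 and 0.28 FPKM in the CK tumors (14, 17 and 20 expected counts) and 0.24, 0.21 and 0.34 FPKM in the PB-020 tumors. It was 0.34, 0.43 and 0.25 FPKM with anti-PD-1 and 0.37, 0.63 and 0.45 FPKM with PB-020/anti-PD-1 (27, 45 and 33 expected counts). All 3 combination tumors lay above all CK and all PB-020 tumors, while the anti-PD-1 tumors overlapped every other group, the combination included. The means were 0.233 ± 0.0451 (CK), 0.263 ± 0.0681 (PB-020), 0.34 ± 0.09 (anti-PD-1) and 0.483 ± 0.133 FPKM (PB-020/anti-PD-1; SD, n = 3 each).

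Against CK, Xcr1 rose 2.11-fold in the combination (log2 change 1.07, SE 0.33, edgeR adjusted p = 0.0378). It was the one member called in this comparison, where 8.35% of all genes were called higher. With anti-PD-1 alone its log2 change was 0.56 (SE 0.33, adjusted p = 0.305) and with PB-020 alone 0.19 (SE 0.34, adjusted p = 0.968). Set against anti-PD-1 alone, Xcr1 in the combination had a log2 change of 0.52 (SE 0.32, adjusted p = 0.761). Over both anti-PD-1 groups it rose 1.65-fold (log2 change 0.72, SE 0.23, adjusted p = 0.0381), with 4 of the 6 tumors above the highest of the other 6. The log2 change in the combination kept its sign with any 1 library left out (0.84 to 1.23), but its call held in 5 of those 12 fits, with adjusted p from 0.0265 to 0.154. It was lost without any 1 of the CK tumors, of the combination tumors or PB-020 tumor 1, and it was held without anti-PD-1 tumor 1. Over both anti-PD-1 groups it was lost without CK tumor 1 or 2, PB-020 tumor 1 or 2, combination tumor 2 or 3 or anti-PD-1 tumor 2 (adjusted p up to 0.0983).

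Clec9a, the other surface marker of cDC1, was higher over both antibody groups against the rest, and passed against CK in neither alone. It stood at 0.48, 0.36 and 0.47 FPKM in CK (24, 19 and 23 expected counts), 0.44, 0.36 and 0.36 with PB-020, 0.88, 0.62 and 0.44 with anti-PD-1 (47, 30 and 23 expected counts) and 0.58, 0.73 and 0.51 with PB-020/anti-PD-1. Only anti-PD-1 tumor 3 of the 6 antibody-treated tumors fell within the range of the tumors without antibody. Over both antibody groups Clec9a rose 1.57-fold (log2 change 0.65, SE 0.22, edgeR adjusted p = 0.0472), close to the threshold. Against CK alone the log2 change was 0.62 (SE 0.31, adjusted p = 0.219) with anti-PD-1 and 0.52 (SE 0.31, adjusted p = 0.258) with the combination. The call was held in 2 of 12 fits with 1 library left out, those without anti-PD-1 tumor 3 or PB-020/anti-PD-1 tumor 3 (adjusted p from 0.036 to 0.116 over the 12). Without anti-PD-1 tumor 1 the log2 change was 0.49 (adjusted p = 0.107). The annotation places Clec12b over Clec9a, and whether reads were counted by strand is not given in the sources used here.

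Batf3, the factor that cDC1 need to develop, was too sparse to rank the groups. Its expected counts were 10, 7 and 8 in CK, 13, 3 and 4 with PB-020, 12, 7 and 10 with anti-PD-1 and 10, 12 and 8 with the combination. The groups overlapped throughout, and PB-020 alone spanned from the lowest to the highest value of the 12 tumors. Over both anti-PD-1 groups the log2 change was 0.41 (SE 0.36, edgeR adjusted p = 0.429).

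The rest of the cDC1 list moved in the same direction in part. Of 10 further cDC1 genes, all tested, 4 rose over both anti-PD-1 groups, none fell and 6 did not pass, with a median log2 change of 0.22 against 4.49e-05 over all genes. Irf8, the factor that acts with BATF3 in these cells, rose from a mean of 11.8 to 18.5 FPKM (log2 change 0.66, SE 0.12, adjusted p = 0.00444). Id2, an inhibitor of E proteins, rose from 23.7 to 33 FPKM (log2 change 0.49, adjusted p = 0.0474). Nfil3 and the lipid hydrolase gene Naaa rose by less, with log2 changes of 0.26 (adjusted p = 0.0396) and 0.18 (adjusted p = 0.0245). Without anti-PD-1 tumor 1, 2 of these 10 genes rose, and the calls of Id2 (log2 change 0.37, adjusted p = 0.0877) and Nfil3 (0.19, adjusted p = 0.0799) were lost. Irf8, Id2 and Nfil3 are also expressed by lymphocytes and macrophages. In the combination against CK 2 of these 10 genes rose, and with PB-020 alone 0 did.

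Siglech, a sialic acid-binding receptor of pDC, showed the largest log2 change of the 10 genes over both anti-PD-1 groups and in the combination against CK, but not with anti-PD-1 alone, where Cd209a (0.87), Ccr7 (0.66) and Clec9a (0.62) stood above its 0.59. Its expected counts were 15, 9 and 7 in CK, 4, 4 and 9 with PB-020, 17, 8 and 21 with anti-PD-1, and 16, 26 and 30 with PB-020/anti-PD-1. Every combination tumor lay above every CK and every PB-020 tumor, and 5 of the 6 antibody-treated tumors lay above the highest of the other 6 on counts scaled to library size. Over both anti-PD-1 groups it rose 2.51-fold (log2 change 1.33, SE 0.34, edgeR adjusted p = 0.0134). This call was held in all 12 fits with 1 library left out (log2 change 1.17 to 1.57, adjusted p 0.00556 to 0.0438). Of the tumors without antibody only CK tumor 1 reached the filter's minimum count of 10. Siglech thus entered the test through tumors given antibody, where it was high, and this limits what its call shows. It was called with no filter on low counts as well.

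The gap for Siglech was widest between the combination and PB-020 alone, at 4.19-fold (log2 change 2.07, SE 0.49, edgeR adjusted p = 0.0388), where 1.25% of all genes were called higher. That call was held in 5 of 12 fits with 1 library left out, and was lost without any 1 of the PB-020 tumors, of the combination tumors or CK tumor 2 (adjusted p up to 0.173). Against CK the combination gave a log2 change of 1.24 (SE 0.45, adjusted p = 0.0704). PB-020 alone gave −0.83 (SE 0.52, adjusted p = 0.88) and anti-PD-1 alone 0.59 (SE 0.46, adjusted p = 0.441). The interaction, the combination minus both single treatments plus CK, was 1.48 (SE 0.68, unadjusted p = 0.0468, adjusted p = 1.0), where 0 genes of the table were called by edgeR and 310 (2.29%) had an unadjusted p under 0.05.

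The 2 scales differ for Siglech. In FPKM the CK tumors stood at 0.41, 0.42 and 0.34 and the PB-020 tumors at 0.12, 0.12 and 0.23, which do not overlap, while their expected counts do. The transcript length implied by count and FPKM ran from 1230 to 2305 bases between libraries, so the FPKM of this gene moves with the length assigned as well as with its reads. With limma on log2(FPKM + 0.1) the change over both antibody groups was 1.07 (adjusted p = 0.00532). The lncRNA gene Gm39015 overlaps Siglech in the annotation.

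Of 13 further pDC genes 12 were tested, and over both anti-PD-1 groups 4 rose and 1 fell, with a median log2 change of 0.42, where 12.3% of all genes were called lower. Ccr9, a homing receptor, rose from a low level (0.125 to 0.258 FPKM, log2 change 1.01, adjusted p = 0.0192). Bst2, an interferon-induced membrane protein, rose from 170 to 263.6 FPKM (log2 change 0.65, adjusted p = 0.0439), a call lost without anti-PD-1 tumor 1 (log2 change 0.67, adjusted p = 0.0777). Runx2 and the inhibitory receptor gene Lair1 had log2 changes of 0.22 (adjusted p = 0.0184) and 0.32 (adjusted p = 0.0189). Tcf4, which encodes the factor that sets pDC identity and is also expressed by stromal cells, fell by 0.50 on the log2 scale (23.4 to 16.3 FPKM, adjusted p = 0.000617). Siglech and Tcf4 thus moved in opposite directions.

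**Figure D2:**
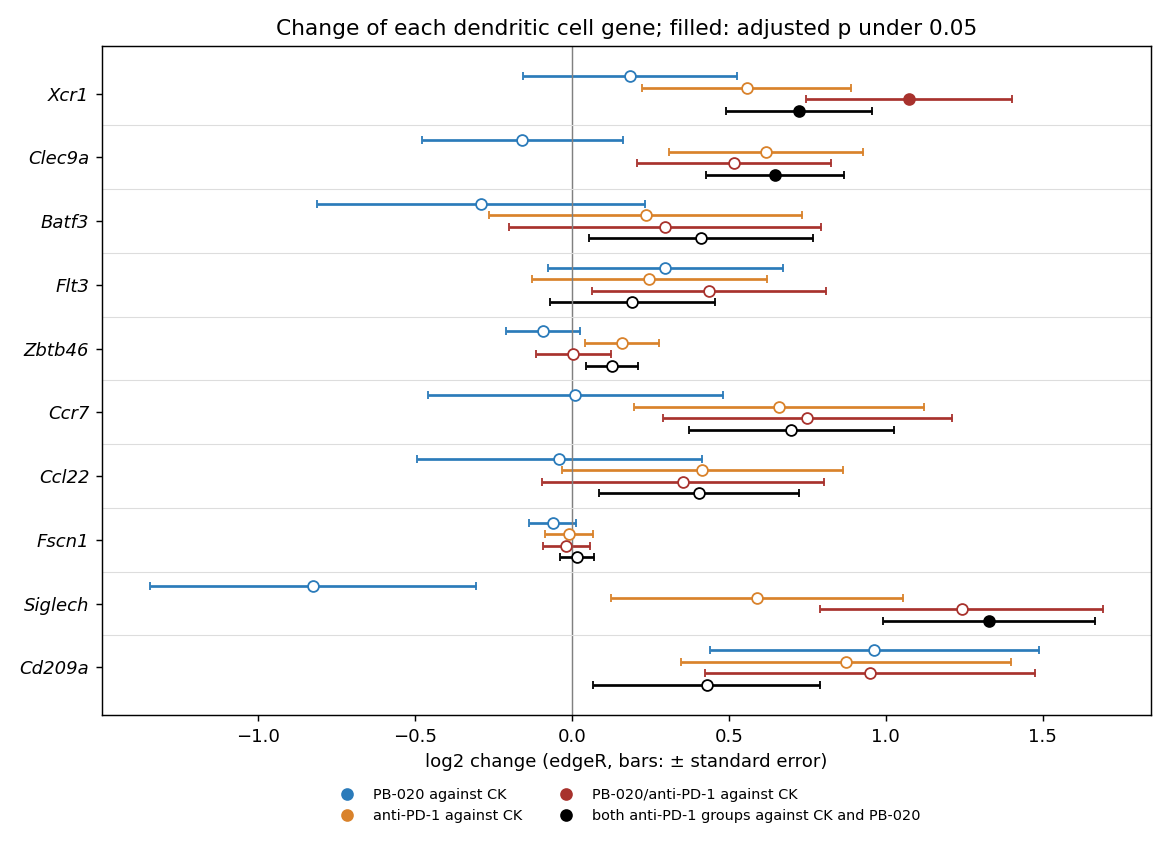
Log2 change of each gene (horizontal axis, edgeR) with its standard error in 4 comparisons, filled where the adjusted p was under 0.05. The filled points are Xcr1 in the combination (1.07) and Xcr1, Clec9a and Siglech over both anti-PD-1 groups (0.72, 0.65 and 1.33), while the points of Fscn1 and Zbtb46 lie near 0 with narrow bars.

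Flt3 and Zbtb46, shared by conventional dendritic cells, were not called in any comparison. Flt3 stood at 0.36, 0.32 and 0.2 FPKM in CK, 0.32, 0.32 and 0.44 with PB-020, 0.49, 0.38 and 0.19 with anti-PD-1 and 0.31, 0.46 and 0.42 with the combination. The lowest and the highest of the 12 values were both in the anti-PD-1 group, and over both antibody groups the log2 change was 0.19 (SE 0.26, edgeR adjusted p = 0.626). Zbtb46 was steady, from 2.53 to 3.3 FPKM in the 12 tumors, with means of 2.71 ± 0.0954 (CK), 2.65 ± 0.135 (PB-020), 2.94 ± 0.388 (anti-PD-1) and 2.64 ± 0.0608 (combination; SD, n = 3 each). Over both antibody groups its log2 change was 0.13 (SE 0.08, adjusted p = 0.288). Of 6 endothelial markers, which share Zbtb46 with dendritic cells, 0 rose and 1 fell in that comparison. Zbtb46 overlaps 5 other annotated genes, Zgpat and Lime1 among them.

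Other genes of the pan-dendritic list rose with antibody. Of 7 further genes 4 rose, none fell and 3 did not pass over both anti-PD-1 groups, with a median log2 change of 0.46. Ciita, the regulator of MHC class II genes, rose from 2.26 to 4.46 FPKM (log2 change 0.96, adjusted p = 0.01) and its target Cd74 from 401.8 to 721 FPKM (log2 change 0.86, adjusted p = 0.022). Itgax, the integrin CD11c, had a log2 change of 0.46 (adjusted p = 0.0116) and Dpp4 one of 0.83 (adjusted p = 0.0286). The call of Dpp4 was lost without CK tumor 3 (log2 change 0.78, adjusted p = 0.059) and without both tumors that stood apart (0.47, adjusted p = 0.0695). Anti-PD-1 tumor 1 held the highest Ciita (6.58 FPKM) and Cd74 (1077 FPKM) of the 12, and without it their log2 changes were 0.78 (adjusted p = 0.00749) and 0.63 (adjusted p = 0.0148). Spi1, the myeloid factor PU.1, had a log2 change of 0.23 (adjusted p = 0.261) and Kit one of −0.22 (adjusted p = 0.342). Ciita and Cd74 are also induced by interferon in other cells. Against CK alone, 0 of the 7 passed for anti-PD-1 and 0 for the combination.

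Ccr7 and Ccl22, both features of mature dendritic cells, followed each other tumor by tumor. Ccr7 stood at 2, 1.77 and 1.96 FPKM in CK, 2.37, 1.46 and 1.88 with PB-020, 5.81, 1.87 and 1.3 with anti-PD-1 and 4.21, 2.87 and 2.45 with the combination. Ccl22 stood at 4.75, 3.79 and 4.71 FPKM in CK, 5.13, 3.56 and 4.01 with PB-020, 11.12, 3.62 and 2.75 with anti-PD-1 and 7.04, 5.37 and 4.33 with the combination. Both the highest and the lowest value of each gene were in the anti-PD-1 group. The 3 combination tumors lay above every CK and PB-020 tumor for Ccr7, but not for Ccl22.

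Across the 12 tumors, Ccl22 was the gene most like Ccr7 of all genes tested, and Ccr7 the gene most like Ccl22 (Pearson r of log2 CPM, counts scaled to library size, 0.965, Spearman rho 0.937, and r 0.935 without anti-PD-1 tumor 1). The tumors of a group share their treatment, so the values are a description. Fscn1, the other maturation marker, did not follow Ccr7 (r 0.23) or Ccl22 (r 0.18). It averaged 83.4 FPKM, against 2.50 for Ccr7 and 5.02 for Ccl22, and which cells its RNA came from was not tested.

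**Figure D3:**
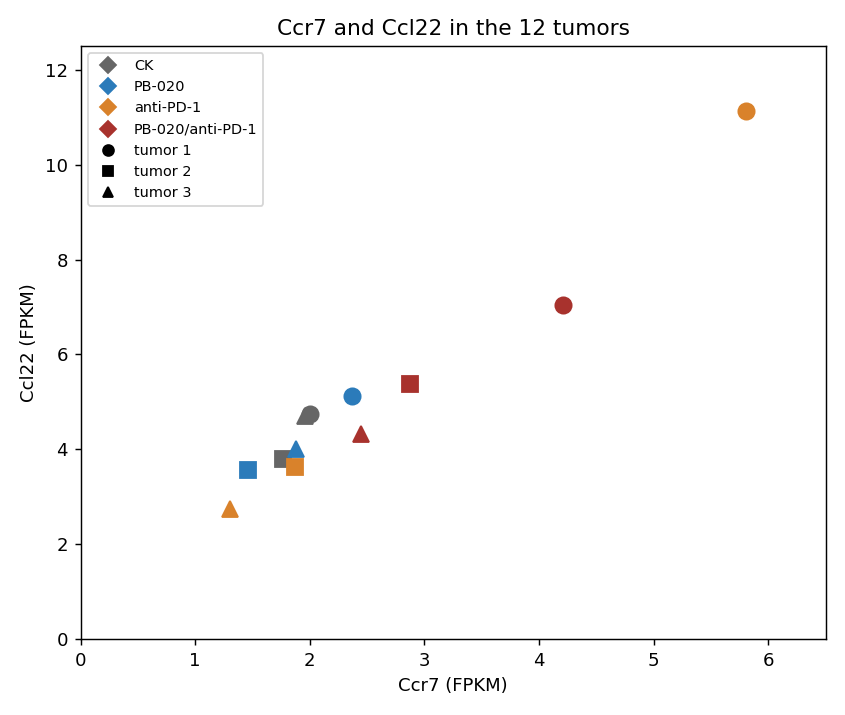
Ccr7 (horizontal axis) against Ccl22 (vertical axis) in FPKM, with 1 point for each of the 12 tumors, colored by group and shaped by tumor number. The points lie along 1 line from anti-PD-1 tumor 3 (1.3 and 2.75) to anti-PD-1 tumor 1 (5.81 and 11.12).

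Neither gene passed the test in any comparison when all 12 tumors were fitted. For Ccr7 the log2 change was 0.75 (SE 0.46, edgeR adjusted p = 0.277) in the combination against CK and 0.70 (SE 0.33, adjusted p = 0.142) over both antibody groups. For Ccl22 these values were 0.35 (SE 0.45, adjusted p = 0.615) and 0.41 (SE 0.32, adjusted p = 0.386). A single tumor decided much of this. Without anti-PD-1 tumor 1, anti-PD-1 alone against CK went from 0.66 to −0.24 for Ccr7 and from 0.42 to −0.44 for Ccl22, and over both antibody groups to 0.25 and −0.02. The spread between tumors also shrank, and Ccr7 in the combination against CK then passed (log2 change 0.75, adjusted p = 0.0302). It also passed there when only the CK and combination tumors were fitted (adjusted p = 0.0232). Over both antibody groups Ccr7 passed without anti-PD-1 tumor 3, the lowest of the 12 (log2 change 0.87, adjusted p = 0.0438).

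In anti-PD-1 tumor 1 the muscle genes were high, and so were Clec9a, Flt3 and Zbtb46, each at its highest of the 12. Its T cell genes summed to 76.32 FPKM, against 30.44 to 31.5 in the other anti-PD-1 tumors, and its macrophage genes to 2358 FPKM, against 1037 and 1103. The part of these cells in the levels of Ccr7 and Ccl22 was not tested. Naive lymphocyte genes, which share Ccr7, summed to 125.45 to 135.47 FPKM in CK and 124.88 to 150.33 in the combination, and 1 of 6 rose over both antibody groups. B cell genes summed to 0.53 to 1.52 FPKM in the 12 tumors.

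Fscn1 was even in all groups, and the part of dendritic cells in its level was not tested. Its means were 85.6 ± 5.36 FPKM in CK, 80.8 ± 5.26 with PB-020, 83.8 ± 4.40 with anti-PD-1 and 83.5 ± 7.28 with PB-020/anti-PD-1 (SD, n = 3 each), with 3196 to 3922 expected counts in a tumor. Over both antibody groups the log2 change was 0.02 (SE 0.05, edgeR adjusted p = 0.844). At this depth the counting error of Fscn1 is small, and its spread over the 12 tumors, a coefficient of variation of 6.19%, was the lowest of the 10 genes, against 51.8% for Ccr7 and 57.9% for Siglech.

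Of 17 further maturation genes 16 were tested, and over both anti-PD-1 groups 8 rose, none fell and 8 did not pass, with a median log2 change of 0.25. The costimulatory ligands Cd80 and Cd86 had log2 changes of 0.75 (1.71 to 2.98 FPKM, adjusted p = 0.0111) and 0.61 (5.55 to 8.36 FPKM, adjusted p = 0.00656). The PD-1 ligand genes Cd274 and Pdcd1lg2 had log2 changes of 1.03 (9.79 to 20 FPKM, adjusted p = 0.0204) and 2.13 (0.438 to 1.96 FPKM, adjusted p = 0.0285). Pdcd1lg2 stood at 5.75 FPKM in anti-PD-1 tumor 1 and at 0.6 to 1.8 in the other 5 tumors given antibody. Without that tumor its log2 change was 1.26 (adjusted p = 0.00258), and without CK tumor 3 the call was lost (2.21, adjusted p = 0.0511). Il15ra, which presents interleukin 15, had one of 0.80 (adjusted p = 0.00445) and Traf1, a signaling adaptor, one of 0.32 (adjusted p = 0.00292). Macrophages and tumor cells also express several of these. Ccl17, which shares its receptor CCR4 with CCL22, had a log2 change of −0.37 (SE 0.22, adjusted p = 0.24). Without anti-PD-1 tumor 1, 6 of the 16 rose over both antibody groups, with a median log2 change of 0.19. In the combination against CK 5 of the 16 rose, with anti-PD-1 alone 2 (4.18% of all genes were called higher there) and with PB-020 alone 0.

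Cd209a, a C-type lectin, was lowest in CK but varied widely. It stood at 0.65, 0.35 and 0.18 FPKM in CK (15, 8 and 4 expected counts), 1.2, 0.62 and 0.49 with PB-020, 1.14, 0.44 and 0.58 with anti-PD-1 and 0.72, 0.99 and 0.57 with the combination. Each treated group overlapped CK, through CK tumor 1. The log2 changes against CK were 0.96 (SE 0.52, edgeR adjusted p = 0.874) with PB-020, 0.87 (SE 0.53, adjusted p = 0.308) with anti-PD-1 and 0.95 (SE 0.53, adjusted p = 0.219) with both, and they share the same 3 CK tumors. Each of these values rested on single tumors. Without CK tumor 3 the combination stood at 0.61 (adjusted p = 0.48), and without CK tumor 1 at 1.52. Anti-PD-1 went to 0.38 without its tumor 1 (adjusted p = 0.726) and to 0.037 without that tumor and CK tumor 3, and PB-020 to 0.49 without its tumor 1. Cd209a belongs to a family of like genes, between which reads can be split.

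Few genes of the cDC2 list, to which Cd209a belongs, passed the test. Of 11 further genes 8 were tested, and over both anti-PD-1 groups 1 rose and none fell, with a median log2 change of 0.13. That gene was Ltb, which encodes a lymphotoxin also made by lymphocytes (1.79 to 4.40 FPKM, log2 change 1.33, adjusted p = 0.0227). Ltb was highest in anti-PD-1 tumor 1 (7.8 FPKM), and without that tumor its log2 change was 0.89 (adjusted p = 0.0204), while 2 genes of the list fell and the list's median was −0.011. Irf4, a factor of cDC2 and of activated lymphocytes, had a log2 change of 0.65 (adjusted p = 0.0559). Sirpa, Itgam and Klf4 had log2 changes of 0.20, 0.19 and −0.11, with adjusted p of 0.142, 0.245 and 0.338. Esam had one of −0.17 (adjusted p = 0.509), and was among the genes that fell without anti-PD-1 tumor 1 (−0.37, adjusted p = 0.0299).

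Of the ligands that act on these receptors, 1 passed the test. Flt3l, the growth factor for FLT3, stood at 6.21 to 10.96 FPKM in the 12 tumors (log2 change over both anti-PD-1 groups 0.00, SE 0.13, edgeR adjusted p = 0.996). Xcl1, the ligand of XCR1 made by NK cells and CD8 T cells, stood at 1.5 to 4.4 FPKM in CK and 5.19 to 8.09 FPKM in the combination, which did not overlap, as held for 19.5% of all genes in that direction. The PB-020 tumors, at 1.35 to 5.4 FPKM, overlapped the combination through PB-020 tumor 1. Its log2 change over both antibody groups was 0.64 (SE 0.34, adjusted p = 0.183). Ccl21a, a ligand of CCR7, rose over both antibody groups (log2 change 2.98, SE 0.86, adjusted p = 0.035), but unevenly, from 0.2 to 1.87 FPKM in the 6 tumors without antibody and from 0.72 to 11.69 in the 6 with it. That call was lost without anti-PD-1 tumor 1 (adjusted p = 0.0751) and without CK tumor 3 (adjusted p = 0.0736). It has near-identical copies in the mouse genome, so its reads are uncertain. Ccl19, the other ligand of CCR7, was listed at 0 in 8 of 12 tumors, and Ccr4, the receptor for CCL22, was at 0.11 FPKM or below, so neither was tested.

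Of the 16 genes of this list 11 were tested, and over both anti-PD-1 groups 7 rose, none fell and 4 did not pass, with a median log2 change of 0.65. Cxcl9 and Cxcl10, chemokines that draw T cells and are made by cDC1 among other cells, rose 2.99-fold (33.4 to 100 FPKM, adjusted p = 0.00395) and 2.20-fold (79.3 to 173 FPKM, adjusted p = 0.0235). Il12b, a subunit of interleukin 12, rose 2.40-fold (0.36 to 0.857 FPKM, adjusted p = 0.00785). Cxcl16 and Il15 rose 1.48-fold (adjusted p = 0.00444) and 1.31-fold (adjusted p = 0.0246).

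**Figure D4:**
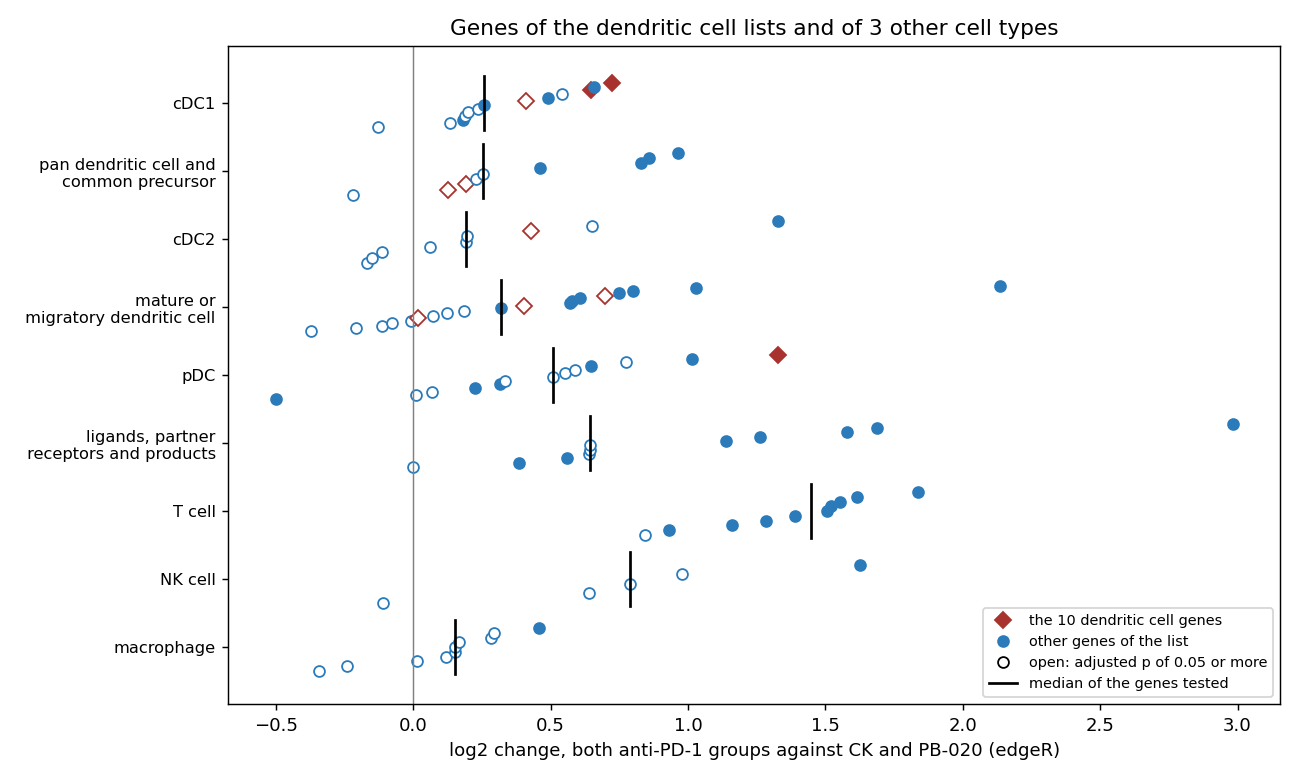
Log2 change over both anti-PD-1 groups against CK and PB-020 (horizontal axis, edgeR) for each gene tested of the 6 dendritic cell lists and of 3 other cell types, with the 10 genes as red diamonds and the median of each list as a black bar. Filled points had an adjusted p under 0.05, and 9 of the 10 T cell genes are filled, with a list median of 1.45.

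Genes of other cells moved in the same comparison. Of 10 T cell genes 9 rose, with a median log2 change of 1.45, and their summed level ran from 13.67 to 25.24 FPKM in the 6 tumors without antibody and from 30.44 to 76.32 in the 6 with it. NK cell genes had 1 of 5 that rose. Monocyte genes had 2 of 5 that rose and 1 that fell, and 1 of each without anti-PD-1 tumor 1. Macrophage genes had 1 of 10 that rose, at 1007 to 2358 FPKM summed over the 12 tumors. Without anti-PD-1 tumor 1, 0 macrophage genes rose and 3 fell. All 5 red cell genes fell. The part of these shifts in the changes of Xcr1, Clec9a and Siglech was not tested.

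Among all genes tested, the nearest to Xcr1 over the 12 tumors were Eva1a (Pearson r 0.918), Cd160 (0.905) and Aim2 (0.887), and those nearest to Siglech were Them6 (0.9), Ncr1 (0.897) and Pomgnt2 (0.886). Clec9a was most like Irf4 (0.932), Tns4 (0.927) and Camk4 (0.926). Xcr1 and Clec9a, which mark the same cells, had r 0.64 with each other, and Batf3 had r 0.24 with Xcr1 and 0.66 with Clec9a. For the other genes the nearest were Eif3j2 for Batf3 (0.902), Fxyd2 for Flt3 (0.916), Zbtb38 for Zbtb46 (0.902), Dpp9 for Fscn1 (0.946) and Xlr3b for Cd209a (0.899). With counts as low as those of Batf3 these values say little.

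No member passed the test for PB-020. Against CK, 0 of 10 were called and 4 log2 changes were above 0 (48.7% of those of all genes). Of all 13563 genes 0 were called by edgeR, and 741 (5.46%) had an unadjusted p under 0.05, none of them a member. Added to anti-PD-1, PB-020 gave log2 changes from −0.15 (Zbtb46) to 0.65 (Siglech, SE 0.43, edgeR adjusted p = 0.777), and 0 of 10 were called. Xcr1 had 0.52 there (SE 0.32, adjusted p = 0.761), and 0 genes of the whole table passed, with 984 (7.26%) at an unadjusted p under 0.05, 0 members among them. Over both PB-020 groups against both groups without it, 0 of 10 were called as well, with 0 members among the 1475 genes (10.9%) at an unadjusted p under 0.05.

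In the combination, 4 of the 10 genes (Xcr1, Clec9a, Ccr7 and Siglech) lay above all CK tumors in each of the 3 tumors, as did 19.5% of all genes tested, and the same 4 lay above all PB-020 tumors, as did 14.5%. None of the 10 lay wholly below CK or PB-020, where 21.2% and 16.5% of all genes did. With anti-PD-1 alone against CK 0 of 10 were called, where 8.26% of all genes were called in either direction, and 0 had an unadjusted p under 0.05 (26.6% of all genes). There 9 of the 10 log2 changes were above 0 (50.1% of those of all genes). Against PB-020, the combination had 1 member called and 3 higher at an unadjusted p under 0.05 (10.2% of all genes), Xcr1 (log2 change 0.89, adjusted p = 0.128), Clec9a (0.67, adjusted p = 0.222) and Siglech.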

How the data were processed

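RNA of 12 MC38 tumors, 4 groups of 3, was sequenced as paired reads, which the authors aligned with Bowtie2 and quantified with RSEM. The submitters' processing notes name HISAT, Bowtie2 and GRCm38.p6. Annotation and versions are not given in the sources used here. The authors deposited expected counts (estimated, not normalized, whole in 91.0% of values), FPKM (per length and library total) and TPM (scaled per library), with their own group averages, which were not used. Expected counts were rounded, filtered (edgeR 4.0.16 filterByExpr, minimum count 10), scaled by TMM and fitted in R 4.3.3 with a robust quasi-likelihood model of 4 group means over 12 libraries. Tests were two-sided and adjusted over 13563 genes by the Benjamini-Hochberg method. The step was tested on simulated counts.

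The alternatives were DESeq2 1.42.0, limma 3.58.1 on log2(FPKM + 1) and log2(FPKM + 0.1), no filter, a strict filter (30 counts in 3 libraries), library size scaling, only the groups compared, a replicate block, each library left out, a fold over 1.5 with an unadjusted p under 0.05, and, chosen after seeing the data, CK tumor 3 and anti-PD-1 tumor 1 both left out, and the list genes refitted without either or both of these tumors. The labels do not say that the tumors came from separate mice, and p-values measure the spread between these tumors only. No pair of libraries agreed within sampling noise. Replicate numbers did not pair the tumors (correlations of same-numbered deviations −0.21 to 0.29).

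All 10 members are named, with at most 6 genes a list by the smallest p over both anti-PD-1 groups, the ligands and partner receptors Flt3l, Xcl1, Ccl19, Ccl21a, Ccr4 and Ccl17, and the most correlated genes. Members and lists were chosen with earlier results of these data known.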

Additional observations from a re-analysis of the deposited data

How the results depend on the processing

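Of the counts of called members, those for PB-020 against CK, anti-PD-1 against CK, the combination against anti-PD-1 and both PB-020 groups stayed at 0 under every alternative. The other counts moved. In the combination against CK the count of 1 became 0 with limma on log2(FPKM + 1), limma on log2(FPKM + 0.1), no filter and the replicate block, 3 with only the groups compared (Ccr7 and Siglech added), 2 with the fold rule and 0 to 2 with 1 library left out. In the combination against PB-020 the count of 1 became 0 with the strict filter, which removes Siglech, and with the replicate block, 3 with the fold rule and 0 to 1 with 1 library left out. Over both anti-PD-1 groups the count of 3 became 1 (Siglech) with limma at either pseudocount, no filter and the replicate block, 2 with DESeq2, library size scaling and with both CK tumor 3 and anti-PD-1 tumor 1 left out, where Clec9a was lost (adjusted p = 0.0666, 0.0503 and 0.123), 2 with the strict filter, which removes Siglech, and 1 to 4 with 1 library left out. For Xcr1 and Clec9a no tumor without antibody reached the 30 counts of the strict filter. That filter kept both genes only through tumors given antibody, where they were high, so their calls under it are no separate support. The interaction had 1 with the fold rule. Calls of Xcr1 and Clec9a lie near the threshold, and the cause of each loss was not tested. The replicate block rests on numbers that did not pair the tumors.

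The 1062 alternative values include the counts above, which have no direction. Of the log2 changes 808 kept side and direction, 47 lost a call, 4 gained one and 30 turned direction. None of these 30 was of a called value. Against CK, Ccr7 with PB-020 went to −0.014 (limma on log2(FPKM + 1)), −0.028 (log2(FPKM + 0.1)), −0.013 (library size) and −0.028 (replicate block), and Zbtb46 in the combination to −0.027, −0.036 and −0.016 under the first 3 of these. Without CK tumor 3 and anti-PD-1 tumor 1, anti-PD-1 against CK went to −0.28 (Flt3), −0.23 (Ccr7) and −0.40 (Ccl22), and both anti-PD-1 groups to −0.063 (Flt3) and −0.0068 (Fscn1). With 1 library left out, PB-020 against CK ranged from −1.20 to 0.053 (Batf3), −0.21 to 0.068 (Ccl22), −0.19 to 0.17 (Ccr7) and −0.064 to 0.33 (Xcr1). Anti-PD-1 against CK ranged from −0.44 to 0.74 (Ccl22), −0.24 to 1.002 (Ccr7), −0.065 to 0.53 (Flt3) and −0.041 to 0.043 (Fscn1). The combination against CK ranged from −0.078 to 0.038 (Fscn1) and −0.036 to 0.080 (Zbtb46), and both anti-PD-1 groups from −0.024 to 0.57 (Ccl22) and −0.014 to 0.046 (Fscn1). For the other comparisons only counts, and genes at an unadjusted p under 0.05, were recomputed. At the few counts of Batf3, Cd209a, Clec9a, Siglech, Flt3 and Xcr1, small differences were not detectable at this depth.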
